A study of Canis lupus familiaris with 18 samples.

Results

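The 217 autosomal 1-Mb bins with the least *H3K27ac* are described here. They were chosen from 2182 complete bins, cut from position 0 on each of CFA1 to CFA38 in the CanFam3.1 build, with the last bin of each chromosome dropped. For each bin, the bases covered by deposited *H3K27ac* peaks were averaged over the lists of 6 dogs. The lowest 10% of the 2177 bins with a mean above 0 were kept, and the 1960 bins above them are called the remaining bins. A further 5 bins held no *H3K27ac* peak in any dog and lie outside the choice. The mean cover over the 6 lists fixed the members, so their *H3K27ac* cover against the remaining bins is given as a description, with a test only in dogs left out of the choice. The choice took no account of genotype.

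The *ChIP-seq* lists came from flash-frozen brainstem (pons) of 6 male pet dogs aged 12 to 16 years. Of these, 3 were heterozygous for the TE insertion in *GTF2I* (label ins, called ancestral) and 3 were homozygous for the allele without it (label noins, called derived). No dog was homozygous for the insertion. Each dog has 1 list for *E2F1* and 1 for *H3K27ac*, with peaks called in that dog alone. The tissue holds neurons and glia of many kinds, and a peak list averages over them. Peak lists hold positions and no reads, and depth was not used here, so no counting interval is given and a bin without a peak is not shown to lack the mark. The tissue label was not checked against marker genes here, and no gene names are given, since neither a sequence nor an annotation of CanFam3.1 was used.

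*H3K27ac* is acetylation of lysine 27 on histone H3. It is placed by the acetyltransferases CBP and p300 and marks active promoters and enhancers, so it is dense where genes are many and active and thin across gene-poor, late-replicating stretches of a chromosome. *E2F1* is a transcription factor best known for control of genes of the cell cycle and DNA synthesis, and its *ChIP-seq* peaks lie largely at active, CG-rich promoters.

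The peak lists differed in size between dogs. *H3K27ac* lists held 99144 to 141336 peaks and *E2F1* lists 19359 to 64490 peaks at a q value below 0.0005, the cutoff used for *E2F1* throughout. Derived dog 2 had the fewest *H3K27ac* peaks and the most *E2F1* peaks, and results that rest on it are given with and without it.

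Mean *H3K27ac* cover in the members ran from 43.8 to 4782 bp per Mb, with a median of 1369 bp. The median of the remaining bins was 97854 bp and the highest bin reached 561181 bp. At the limit, the 3 bins just inside were chr6:47000001-48000000 with 4764 bp, chr19:34000001-35000000 with 4769 bp and chr11:31000001-32000000 with 4782 bp. The 3 just outside were chr22:16000001-17000000 with 4824 bp, chr31:15000001-16000000 with 4827 bp and chr22:44000001-45000000 with 4832 bp. The limit thus runs through a smooth stretch of values, and bins on its either side differ by less than 100 bp.

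The 5 bins of lowest cover each held *H3K27ac* in a single dog. In chr8:7000001-8000000 and in chr17:42000001-43000000, ancestral dog 1 had 263 bp of cover and the other 5 dogs none, a mean of 43.8 bp. Ancestral dog 1 also supplied the only cover in chr25:22000001-23000000, with 290 bp. In chr37:4000001-5000000 the cover was 312 bp in derived dog 3, and in chr4:63000001-64000000 it was 314 bp in derived dog 1. *E2F1* peaks were not absent from these 5 bins. Summed over the 6 lists they held 13, 15, 19, 19 and 14 *E2F1* peaks in the order given, close to the member median of 17.

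Members covered by *H3K27ac* in all 6 dogs numbered 92 of 217. Cover in 5 dogs was found in 40 members, in 4 dogs in 23, in 3 dogs in 28, in 2 dogs in 23 and in 1 dog in 11. The number of members with no cover at all was 18, 44 and 72 for ancestral dogs 1 to 3 and 40, 107 and 36 for derived dogs 1 to 3. In the remaining bins, derived dog 2 had 1 bin without cover and the other dogs had none.

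Members often lay side by side along the chromosomes. They formed 141 runs, of which 84 were single bins, 44 were pairs of neighbouring bins, 7 spanned 3 Mb and 6 spanned 4 Mb, the longest length seen. Runs of at least 2 bins held 133 members, or 61.3%. Thus 61.3% of members had a member as a direct neighbour, against 12.8% of the remaining bins. Bins without any *H3K27ac* peak are not members and break runs. Such bins separate neighbouring runs at chr8:20000001-21000000, chr31:4000001-5000000 and chr38:9000001-10000000, so stretches poor in *H3K27ac* can be longer than the runs.

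Among the 6 runs of 4 Mb, the lowest mean cover was at chr3:76000001-80000000, with 546 bp per Mb. Across its whole 4 Mb, *H3K27ac* covered 2485, 1147 and 722 bp for ancestral dogs 1 to 3 and 1322, 504 and 6917 bp for derived dogs 1 to 3. Derived dog 3 was the highest there and the other 5 dogs lay well below it. The run at chr22:17000001-21000000 averaged 627 bp per Mb, and there ancestral dog 1 and derived dog 1 were highest, with 4436 and 4572 bp in all. At chr4:76000001-80000000, with a mean of 860 bp per Mb, both ancestral dog 3 and derived dog 2 had 291 bp in all, while derived dog 3 had 7312 bp. The runs at chr13:54000001-58000000 and chr34:28000001-32000000 averaged 962 and 1372 bp per Mb. The 6 runs of 4 Mb held between 15 and 31 *H3K27ac* regions each, and from 3 to 18 *E2F1* peaks per dog. The sixth, chr4:82000001-86000000, named after its values were seen, lies 2 Mb beyond the end of another run of the same length and averaged 1758 bp per Mb.

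Members were found on 37 of the 38 autosomes and made up 9.95% of complete bins, with shares that differed widely between chromosomes. CFA22 held 18 among its 61 bins (29.5%) and CFA19 held 13 of 53 (24.5%). CFA13 followed with 12 of 63 (19.0%), CFA31 with 7 of 39 (17.9%) and CFA38 with 4 of 23 (17.4%). The bins without any *H3K27ac* peak are not members and do not count in these shares. They lay on CFA38 (2 bins) and on CFA8, CFA12 and CFA31 (1 each), and counting them would change the order. The chromosomes with the largest numbers after CFA22 were CFA4, with 14 of 88, and CFA19. At the other end, CFA24 had none of its 47 bins among the members, while CFA1 had 1 of 122 (0.820%) and CFA5 1 of 88. The median cover of all bins was 18.3 kb on CFA19 and 25.3 kb on CFA22, against 138 kb on CFA24. Near the ends of chromosomes the share was close to that of all bins. Of the 114 bins in the first 3 Mb of the autosomes 10 were members (8.77%), and the same number fell in the last 3 complete bins.

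**Figure D1:**
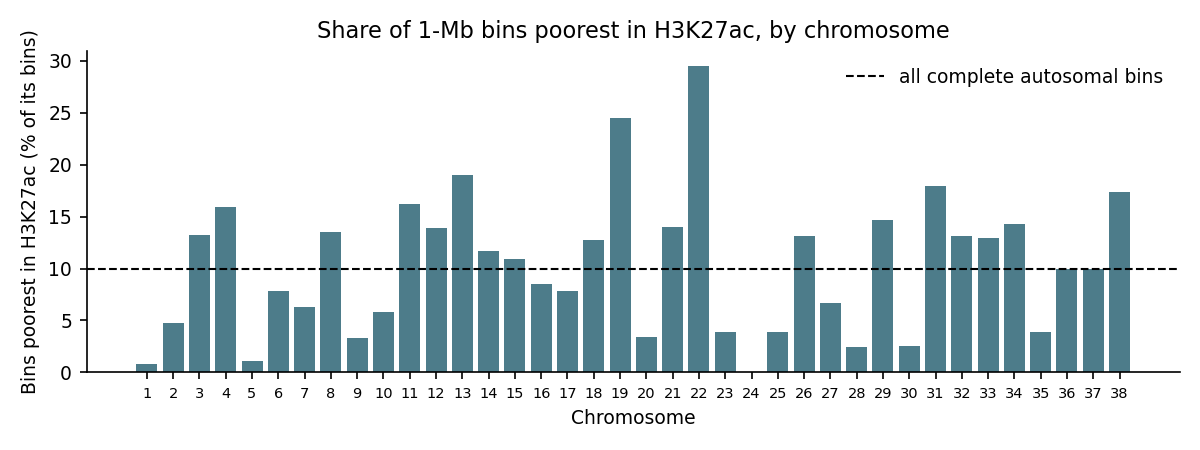
Share of each autosome's complete 1-Mb bins that belong to the 217 bins poorest in *H3K27ac* (bars, % of bins). The 5 bins without any *H3K27ac* peak are not among the 217. The dashed line is the share over all autosomes, 9.95%, and CFA22 and CFA19 reach 29.5% and 24.5% while CFA24 has none.

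Per dog, *H3K27ac* peaks covered 477, 514 and 263 kb of the 217 Mb for ancestral dogs 1 to 3, and 414, 183 and 454 kb for derived dogs 1 to 3. As a density, this was 2.2, 2.37 and 1.21 kb per Mb for the ancestral dogs and 1.91, 0.842 and 2.09 kb per Mb for the derived dogs. In the remaining bins the density was 151, 109 and 117 kb per Mb for the ancestral dogs and 130, 128 and 135 kb per Mb for the derived dogs. Ancestral dog 3 and derived dog 2 were lowest in the members, although neither was lowest in the remaining bins. The members are 9.95% of the complete bins, and they held from 0.0728% to 0.240% of each dog's cover. The number of *H3K27ac* peaks in them was 723, 637 and 355 for the ancestral dogs and 570, 226 and 575 for the derived dogs.

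Whether a dog that took no part in the choice showed the same low cover was tested by choosing the bins from the other 5 dogs and reading them in the dog left out. Each such choice shared 208 to 213 of its 217 bins with the members, 195 members were chosen in all 6 choices, and 239 different bins were chosen at least once. In the dog left out, the chosen bins had 2.44, 2.69 and 1.29 kb of *H3K27ac* cover per Mb for ancestral dogs 1 to 3 and 2.02, 0.918 and 2.22 kb per Mb for derived dogs 1 to 3. The other bins of the same dogs had between 109 and 151 kb per Mb. The mean log2 ratio was -6.15 ± 0.605 (SD, n = 6 dogs), which is 70.8-fold lower (exact two-sided sign-flip permutation test over 64 sign assignments, p = 0.03125, the smallest p that 6 dogs allow). The difference was in the same direction in 6 of 6 dogs. The 6 choices share dogs and most of their bins, so the 6 ratios are not independent readings. The test speaks only to whether low cover repeats between dogs.

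The number of peaks fell short by less than their cover. In the dogs left out, the chosen bins held 1.1 to 3.59 *H3K27ac* peaks per Mb against 48.7 to 69.7 in the other bins, a mean log2 ratio of -4.58 ± 0.536 (SD, n = 6), or 23.9-fold lower (exact sign-flip permutation test, p = 0.03125). The peaks were also narrower. Their median widths were 491, 638.5 and 590 bp for ancestral dogs 1 to 3 and 518, 624 and 580 bp for derived dogs 1 to 3, against 1180 to 1389 bp in the other bins, a mean log2 ratio of -1.14 ± 0.112 (SD, n = 6), or 2.2-fold narrower (exact sign-flip permutation test, p = 0.03125). Number and width of peaks make up cover, so these tests are not support separate from that of cover. The median fold enrichment of a peak over its local background differed little. It ranged from 2.62 to 3.04 in the chosen bins and from 2.90 to 3.17 elsewhere, a mean log2 ratio of -0.0870 ± 0.0420 (SD, n = 6), or 1.06-fold lower, again in 6 of 6 dogs (exact sign-flip permutation test, p = 0.03125). With the lowest 5% of bins in place of 10%, cover in the dog left out was lower still, at a mean log2 ratio of -7.71, and with bins ranked by the median in place of the mean over lists it was -5.52.

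Overlapping or touching *H3K27ac* peaks from the 6 lists were joined into regions, each placed by its midpoint. The members held 1661 regions, or 7.65 per Mb, and the remaining bins 172501, or 88.0 per Mb. The regions in members had a median width of 561 bp, against 1260 bp in the remaining bins. At least 1 kb was reached by 27.3% of member regions and by 59.4% of the others. The choice limits mean cover to 4782 bp per bin, which leaves little room for wide regions called in many dogs. The difference in width thus follows in part from the choice. Only 1 member region was wider than 5 kb, against 11.9% of regions in the remaining bins. This region, chr26:25883581-25890398, is 6818 bp wide, was called in derived dog 1 alone with a fold enrichment of 8.04, and is named here after its values were seen.

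Most of these regions were seen in 1 dog. In the members 1080 regions (65.0%) came from a single dog and 84 (5.06%) from all 6, against 36.8% and 27.5% in the remaining bins. Single-dog regions in members had a median width of 370 bp. They numbered 370, 252 and 36 for ancestral dogs 1 to 3 and 190, 28 and 204 for derived dogs 1 to 3. Ancestral dog 3 and derived dog 2, lowest in member cover, supplied the fewest, as they did in the remaining bins (3734 and 5211). Regions found in all 6 dogs were wider, with a median of 1504.5 bp, and in the remaining bins their median was 4132.5 bp. They lay in 65 members (29.95%), with at most 2 in any bin. The overlap between the lists of any 2 dogs, as the Jaccard index over base pairs, had a median of 0.219 over the 15 pairs within the members, with a range of 0.156 to 0.258, and a median of 0.574 in the remaining bins, with a range of 0.502 to 0.619. The ranges of the pairs did not overlap. The pairs share dogs, so no test was made. The limit on mean cover favours regions called in few dogs, so the lower sharing and overlap also follow in part from the choice.

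**Figure D2:**
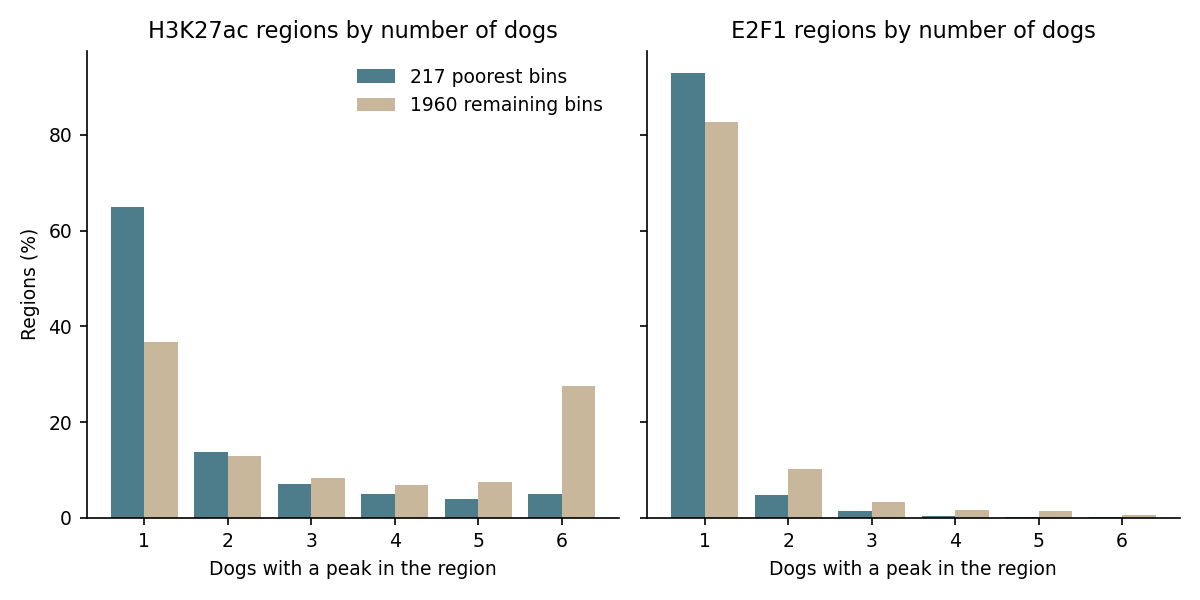
Regions counted by how many dogs had a peak in them (x axis, 1 to 6 dogs), as % of all regions of that antibody in the 217 poorest bins and in the 1960 remaining bins. For *H3K27ac*, 65.0% of regions in the poorest bins come from 1 dog and 5.06% from 6 dogs, while *E2F1* regions come mostly from 1 dog in both sets of bins.

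Among *H3K27ac* regions called in all 6 dogs, the widest in a member was chr8:19367149-19371477, of 4329 bp. Its fold enrichment was 2.54, 4.73 and 2.82 for ancestral dogs 1 to 3 and 3.17, 2.41 and 2.50 for derived dogs 1 to 3. Ancestral dog 2 stood above the others there, and both genotypes overlapped. The bin that follows it, chr8:20000001-21000000, is one of the 5 with no *H3K27ac* peak in any dog. The next widest region, chr17:46091018-46095125, spanned 4108 bp with fold enrichments of 5.51, 6.35 and 6.35 for the ancestral dogs and 4.61, 5.35 and 4.56 for the derived dogs. Here each ancestral dog was above each derived dog. This was 1 region among those picked for width, and it was not tested. The other 3 of the 5 widest were chr10:14086862-14090948 (4087 bp), chr11:31277291-31281363 (4073 bp) and chr12:25871362-25874983 (3622 bp), with fold enrichments of 2.40 to 6.57 over the dogs. The region of CFA11 lies in the last bin inside the limit. Of these 5 regions, that of CFA8 alone overlapped an *E2F1* peak, in 1 dog.

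The regions with the highest lowest fold enrichment over the 6 dogs were shorter. The first, chr31:5743683-5745345 (1663 bp), had values of 6.95, 6.97 and 7.88 for ancestral dogs 1 to 3 and 6.43, 10.5 and 6.81 for derived dogs 1 to 3. It stood in a bin with a mean cover of 4320 bp, and derived dog 2, the dog with the least cover in members, had the highest value. The second, chr11:47060040-47060632, was only 593 bp wide and ranged from 5.97 to 9.79. The others were chr15:25443661-25444262 (5.89 to 13.4), chr33:15734441-15736101 (5.77 to 10.5) and chr17:41700619-41701376 (5.68 to 13.5). For comparison, the median fold enrichment of all *H3K27ac* peaks in members was between 2.60 and 3.03 per dog, and the choice of the 5 regions fixes that they lie above it.

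The paper cautions that cross-correlation scores of its *E2F1* data were low and that some binding sites may be missed. Densities here are of called peaks. *E2F1* took no part in the choice of bins, and its peaks were fewer in the members. They held 705, 724 and 748 *E2F1* peaks for ancestral dogs 1 to 3, and 607, 528 and 800 for derived dogs 1 to 3. Per Mb this was 3.25, 3.34 and 3.45 for the ancestral dogs and 2.80, 2.43 and 3.69 for the derived dogs. The remaining bins held 15.2, 20.3 and 24.8 peaks per Mb for the ancestral dogs and 9.19, 31.5 and 17.4 for the derived dogs. The members were lower in every dog, and the highest member density, 3.69, was below the lowest remaining density, 9.19. The mean log2 ratio was -2.55 ± 0.677 (SD, n = 6), or 5.87-fold lower (exact sign-flip permutation test, two-sided, p = 0.03125, 6 of 6 dogs). With bins chosen from the other 5 dogs in each case it was -2.54. Without derived dog 2 it was -2.29 and without derived dog 1 it was -2.72, and with 5 dogs the smallest p that the test allows is 0.0625.

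At a q value below 0.0005, the size of the *E2F1* ratio followed the length of the *E2F1* list. The members held only 0.849% to 3.26% of each dog's *E2F1* peaks in complete bins, and their counts varied far less than list length. Density in the remaining bins is thus nearly a measure of list length, so this order follows largely from how the ratio is formed. In the order of list size, from 19359 peaks in derived dog 1 to 64490 in derived dog 2, the ratio of member to remaining density was 0.305, 0.214, 0.212, 0.164, 0.139 and 0.0773. Across the 6 dogs no relation between the density in members and that in the remaining bins passed the test (Pearson's r = -0.268, permutation p = 0.622; Spearman's rho = -0.0286, permutation p = 1, n = 6; r = 0.110 without derived dogs 1 and 2, the 2 dogs farthest from the median). This was the only relation tested across the 6 dogs. When the same number of *E2F1* peaks, the 19359 with the lowest q values, was taken from each dog, members held 394, 244 and 193 peaks for the ancestral dogs and 607, 86 and 387 for the derived dogs. The mean log2 ratio was then -2.92. The dogs kept the same order of ratios, with derived dogs 1 and 2 at the 2 ends with 0.305 and 0.0418. An equal number of peaks sets a stricter q cutoff in the dogs with longer lists. The reason for the order was not tested. With all deposited *E2F1* peaks the mean log2 ratio was -2.14, and the ratios did not follow list length. Ancestral dog 2, with the shortest list of 85871 peaks, then had a ratio of 0.211. Derived dog 1, with 109663 peaks, had the highest ratio, 0.320.

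**Figure D3:**
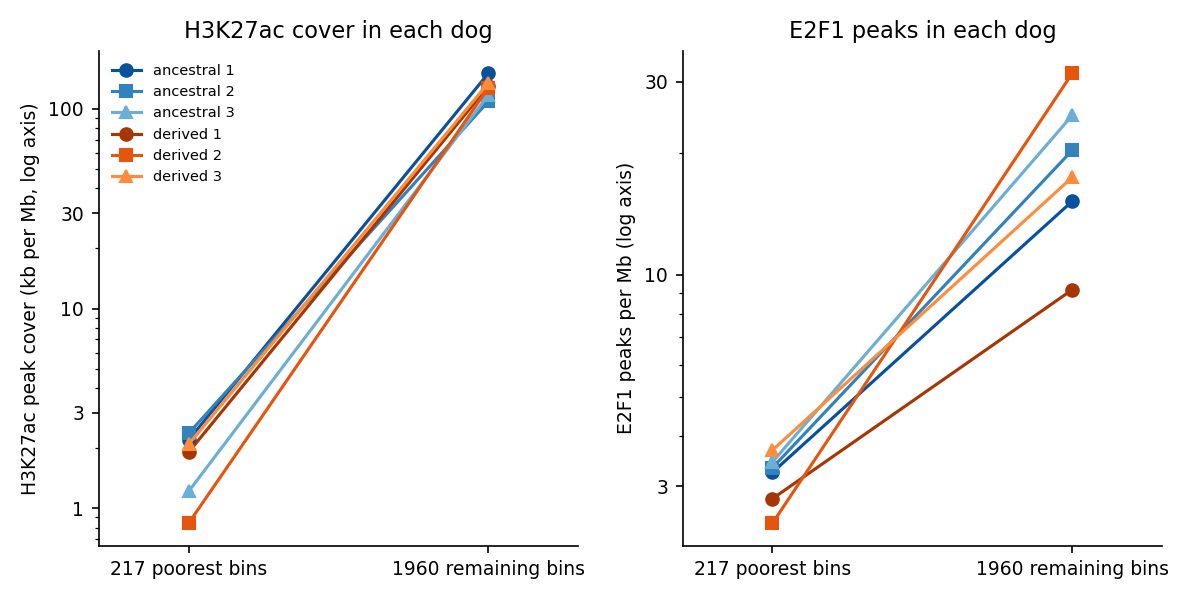
*H3K27ac* peak cover (left, kb per Mb) and *E2F1* peaks per Mb (right) in the 217 poorest and 1960 remaining bins, on log axes, with 1 line per dog. *E2F1* density in the poorest bins lies between 2.43 and 3.69 in all 6 dogs, while in the remaining bins it spreads from 9.19 to 31.5.

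*E2F1* peaks away from *H3K27ac* were also fewer in the members. Counting only *E2F1* peaks that overlap no *H3K27ac* peak of the same dog, per Mb of sequence without *H3K27ac*, the members held 3.12, 3.27 and 3.41 for ancestral dogs 1 to 3 and 2.74, 2.39 and 3.58 for derived dogs 1 to 3. The remaining bins held 9.54, 12.3 and 14.8 for the ancestral dogs and 6.96, 15.9 and 12.7 for the derived dogs. The mean log2 ratio was -1.92 ± 0.477 (SD, n = 6), or 3.8-fold lower (exact sign-flip permutation test, p = 0.03125, 6 of 6 dogs). Mappability, base composition and assembly gaps of the bins were not available here, and their part in the result was not tested.

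*E2F1* density was higher at each step up in the *H3K27ac* cover of a bin, in all 6 dogs. Bins were split into deciles by mean cover, the members being the first decile. Averaged over dogs, *E2F1* density was 3.16 per Mb in the members, 5.10 in the second decile, 7.81 in the third and 47.8 in the last. Derived dog 2 crossed the others on the way, from the lowest density in the members, 2.43, to the highest in the last decile, 85.8. Derived dog 1, with the shortest list, went from 2.80 to 18.0. Against the second decile alone, the members were lower by a mean log2 ratio of -0.69, or to 0.620 of its density (exact sign-flip permutation test, n = 6 dogs, p = 0.03125), a comparison added after the data were seen. Outside *H3K27ac* peaks the same comparison gave -0.59, or 0.664 of the density.

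**Figure D4:**
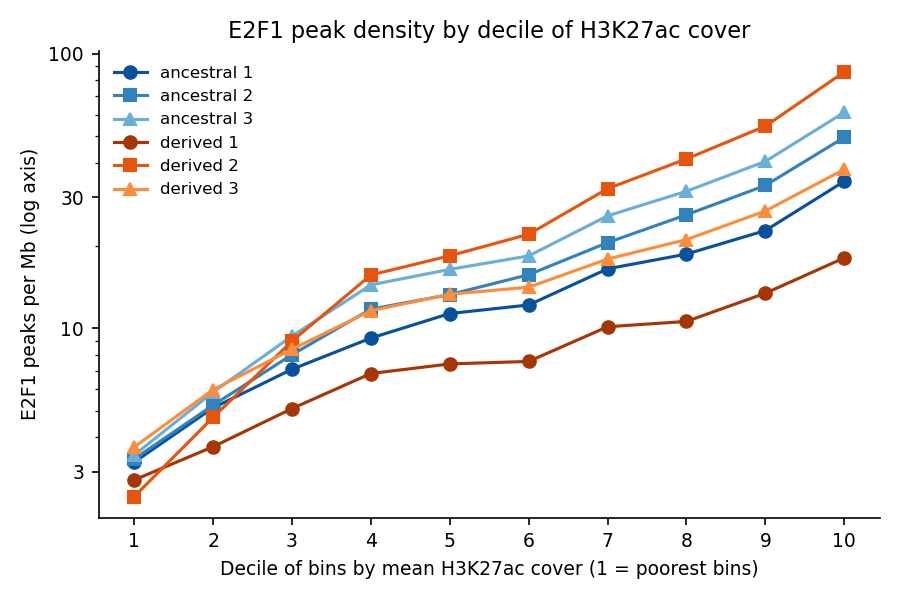
*E2F1* peaks per Mb (log axis) in each decile of autosomal bins ranked by mean *H3K27ac* cover, with 1 line per dog. All 6 lines begin between 2.43 and 3.69 in the poorest bins and end between 18.0 and 85.8 in the last decile.

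Members that stood alone and members in runs had like *E2F1* densities. The 84 single bins held 2.48 to 3.76 *E2F1* peaks per Mb over the dogs, and the 133 bins in runs held 2.41 to 3.64, with means over dogs of 3.25 and 3.1. Density was higher from the first bin outside. In the 251 remaining bins next to a member it was 4.80 to 10.4 per Mb, in the 197 bins at a distance of 2 it was 6.84 to 18.2, and in the 1090 bins at a distance of 6 or more it was 11.1 to 41.1. Median *H3K27ac* cover over the same bins was 30.8, 58.6 and 130 kb, so *E2F1* density and *H3K27ac* cover were both higher farther from the members, and these differences were not tested.

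**Figure D5:**
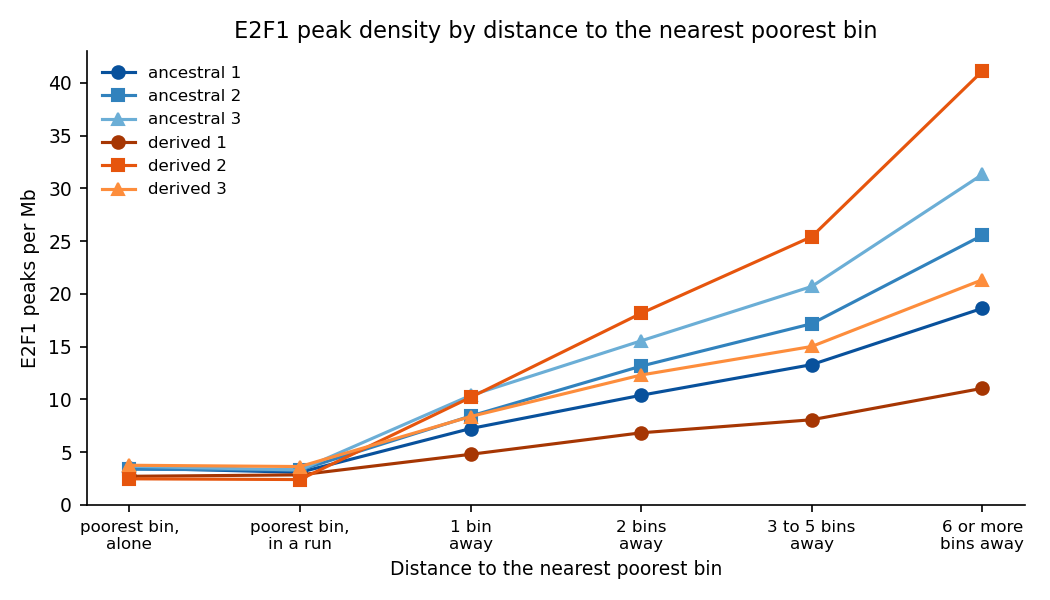
*E2F1* peaks per Mb by distance, in 1-Mb bins, to the nearest bin poorest in *H3K27ac*, with 1 line per dog. Single bins and bins in runs have like values, 2.41 to 3.76 over the dogs, and bins at a distance of 6 or more, with chromosomes that have no poorest bin included, reach 11.1 to 41.1.

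Bin by bin, every member held an *E2F1* peak in some dog. The sum over the 6 lists ran from 3 to 99 with a median of 17, and the quartiles were 13 and 21, against a median of 82 and quartiles of 45 and 154 in the remaining bins. An *E2F1* peak in all 6 dogs was found in 155 members (71.4%) and in 97.7% of the remaining bins. A dog had 7 to 29 members without any *E2F1* peak. Only 2 members had a sum above the median of the remaining bins. These were chr28:39000001-40000000 with 99 peaks and chr26:25000001-26000000 with 97. The bin chr8:73000001-74000000 followed with 78, and chr26:26000001-27000000, the neighbour of the second, came next with 68. These 4 bins were singled out after their values were seen.

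*E2F1* peaks in members seldom lay on *H3K27ac*. An overlap of at least 1 bp with a peak of the same dog was found for 29, 17 and 10 *E2F1* peaks for ancestral dogs 1 to 3 and 14, 10 and 24 for derived dogs 1 to 3. As shares, these were 1.34% to 4.11%, against 34.1% to 55.9% in the remaining bins. The members have far less acetylated sequence for a peak to fall on. The share of *E2F1* midpoints inside *H3K27ac*, divided by the share of sequence that *H3K27ac* covered, was 15.5, 9.32 and 8.81 for ancestral dogs 1 to 3 and 11.2, 18.0 and 13.2 for derived dogs 1 to 3. In the remaining bins it was 2.75, 3.68 and 3.53 for the ancestral dogs and 2.35, 3.96 and 2.46 for the derived dogs. The ratio was higher in the members in all 6 dogs, without overlap between the sets, although it rests on 8 to 24 *E2F1* peaks per dog and was not tested. Its highest possible value also falls as the covered share rises. *H3K27ac* covered 0.0842% to 0.237% of the members and 10.9% to 15.1% of the remaining bins. The remaining bins thus had a far lower ceiling, and the lack of overlap follows in part from this. Of the 84 *H3K27ac* regions that members held in all 6 dogs, 20 (23.8%) overlapped an *E2F1* region, against 61.7% of such regions in the remaining bins. Their median width was 1504.5 bp in members and 4132.5 bp in the remaining bins, so a member region offers less sequence to overlap. The shares were not adjusted for width and not tested.

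The *E2F1* peaks themselves were slightly narrower in members. Median widths were 280, 275.5 and 251 bp for ancestral dogs 1 to 3 and 258, 251.5 and 248.5 bp for derived dogs 1 to 3. Each was below the same dog's median in the remaining bins, which ranged from 281 to 336 bp, and this was not tested. Median fold enrichment was 4.68 to 5.31 in members and 4.92 to 5.41 in the remaining bins. Merged over dogs, the members held 3713 *E2F1* regions, of which 3451 (92.9%) came from 1 dog, against 82.8% in the remaining bins. *E2F1* lists of different dogs overlapped little in both sets of bins. Their Jaccard index over the 15 pairs of dogs had a median of 0.0258 in the members, with a range of 0.0194 to 0.0426. In the remaining bins the median was 0.0799, with a range of 0.0327 to 0.148. Regions called in at least 4 dogs numbered 32 (0.862%), against 3.6% in the remaining bins. Of these 32, 12 (37.5%) overlapped an *H3K27ac* region, and in the remaining bins 86.4% did.

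*E2F1* was called in all 6 dogs at 5 member regions. At chr27:15126911-15127735, its fold enrichment was 6.22, 6.54 and 10.7 for ancestral dogs 1 to 3 and 4.54, 7.29 and 7.20 for derived dogs 1 to 3. At chr32:27062182-27063377 it was 14.1, 12.3 and 28.5 for the ancestral dogs and 4.39, 11.3 and 19.2 for the derived dogs. Both regions had *H3K27ac* in 6 of 6 dogs, and in both ancestral dog 3 was highest and derived dog 1 lowest, with the genotypes overlapping. At chr2:26989044-26989644 it was 5.12, 4.20 and 7.14 for the ancestral dogs and 12.7, 14.6 and 4.62 for the derived dogs, with *H3K27ac* in 1 dog. The last pair, chr13:40251365-40252919 and chr13:40696208-40697999, lies in a single bin and had no *H3K27ac* peak in any dog. Fold enrichment at these was low and even, from 4.0 to 5.60 at the first and from 3.87 to 4.72 at the second, over widths of 1555 and 1792 bp.

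The study contrasted dogs with and without the TE insertion, and the members showed no difference in *H3K27ac* cover between them that exceeded the spread between dogs. Cover summed over the members was 0.418 ± 0.135 Mb in ancestral and 0.350 ± 0.146 Mb in derived dogs (mean ± SD, n = 3 each), a difference, derived minus ancestral, of -0.0680 Mb (exact two-sided permutation test, p = 0.5, with 20 assignments and a smallest p of 0.1). Without derived dog 2 the difference was 0.0158 Mb, of the opposite sign. Relative to the same dog's remaining bins, the log2 ratio was -6.07 ± 0.535 in ancestral and -6.45 ± 0.690 in derived dogs (SD, n = 3 each), a difference of -0.377 (exact permutation test, p = 0.7), and 0.0108 without derived dog 2.

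For *E2F1*, ancestral dogs had 725.7 ± 21.5 and derived dogs 645 ± 139.9 peaks in the members (mean ± SD, n = 3 each), a difference of -80.7 (exact permutation test, p = 0.4). Every ancestral value lay between those of derived dogs 1 and 3. With all deposited *E2F1* peaks the difference was 774, of the opposite sign, and without derived dog 2 it was -20.5. The log2 ratio of members to remaining bins was -2.56 ± 0.312 in ancestral and -2.55 ± 1.02 in derived dogs (SD, n = 3 each), a difference of 0.00952 (exact permutation test, p = 1). Without derived dog 2 this difference was 0.586 and without derived dog 1 it was -0.413. The p-values measure the spread between individual dogs, and genotype cannot be told apart from other differences between the 3 dogs of each group.

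Bin by bin, limma on log2(covered kb + 1), with each dog scaled to the mean total, called 0 of 2177 bins at an adjusted p below 0.05 (0%), and 40 (1.84%) had an unadjusted p below 0.05. Among the members 0 were called and 7 of 217 (3.23%) had an unadjusted p below 0.05, all 7 lower in derived dogs. The largest of these differences was in chr19:21000001-22000000, with a log2 fold change of -1.39 (SE 0.628). The median log2 fold change, derived against ancestral, was -0.20 in the members and -0.01 over all bins. In the alternatives that kept derived dog 2, the member median ran from -0.286 to -0.0366. These ends came from bins of at least 1 kb mean cover and from log2(covered kb + 10), so its size depends on the settings. The negative direction rests on derived dog 2. Without it the member median was 0.00227, and 3 members had an unadjusted p below 0.05, of which 2 were higher in derived dogs. Without ancestral dog 3 the number was 14, and with the replicate number as a block it was 2.

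Regions with a peak in 3 of 3 dogs of either genotype and in 0 of 3 of the opposite one were also counted. In the members 8 of 1661 *H3K27ac* regions (0.482%) were ancestral only, where the share over all complete bins was 0.275%, and 2 (0.120%) were derived only, against 0.328%. For *E2F1*, 1 of 3713 regions (0.0269%) fell on each side, against 0.119% ancestral only and 0.0464% derived only over all bins. These few regions were named after their values were seen. The derived-only *H3K27ac* regions were chr14:53413169-53413752, with fold enrichments of 3.6, 3.51 and 3.52 for derived dogs 1 to 3, and chr31:1034937-1035656, with 2.37, 2.56 and 2.2. The highest fold enrichments among the ancestral-only regions were at chr31:7104268-7105915, with 2.48, 4.24 and 3.17 for ancestral dogs 1 to 3, and at chr8:21646040-21647380, with 2.23, 3.78 and 4.20. The *E2F1* regions were chr16:51221394-51221778 in the ancestral dogs, with 5.68, 5.03 and 4.77, and chr38:4284871-4285190 in the derived dogs, with 3.94, 5.03 and 4.84.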

How the data were processed

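*ChIP-seq* peak lists for *E2F1* (narrow) and *H3K27ac* (broad) from 6 dogs were used, 12 lists in all, and the input samples were not used here. After Trim Galore, the authors mapped reads to CanFam3.1 with bowtie. The submitters' processing notes give its version as 1.1.2, while the paper's methods give a later one. By those methods, multi-mapped reads were kept at alignment and duplicates were dropped by molecular identifier. Peaks were called per dog with MACS2 2.2.0. Whether input entered the calls is not given in the sources used here. The deposited lists hold a score (not used), the fold enrichment, a ratio over local background, and −log10 p and −log10 q as macs2 wrote them. Values were not normalized between dogs, so fold values of different dogs stand side by side without a test between dogs.

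Bins, covered bases, peak midpoints and merged regions were computed in Python 3.11.15 (pandas 2.3.3, numpy 2.4.6, scipy 1.17.1), and checked on simulated data. A chromosome's last bin is that with the highest peak end in any list. All deposited *H3K27ac* peaks were used, and *E2F1* peaks at a q value below 0.0005, the study's cutoff. Coordinates are 1-based. Within-dog contrasts used exact sign-flip tests of log2 ratios, genotypes an exact permutation test, and bins limma 3.58.1 (R 4.3.3) with Benjamini-Hochberg adjustment over all bins. Named regions are the 5 longest runs (ties by lower cover), the 5 lowest bins, bins at the limit, the 5 widest *H3K27ac* regions of 6 dogs, the 5 with the highest lowest fold, and the 5 *E2F1* regions called in most dogs. The members and lists were chosen with earlier results of these data known. Alternatives were other thresholds, bin edges, shares and summaries, leaving out each dog, and pairing by replicate number. An equal number of *E2F1* peaks per dog and the comparison with the second decile were chosen after seeing the data.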

Additional observations from a re-analysis of the deposited data

Results flagged for a closer look

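The 5 complete bins without an *H3K27ac* peak in any dog, which the choice of members left out, still held 85 *E2F1* peaks summed over the 6 lists. They were looked at again because they lie outside the comparisons above, and the input samples were not used here, so no background is given. The bins were chr8:20000001-21000000 with 25 peaks, chr12:30000001-31000000 with 13, chr31:4000001-5000000 with 14, chr38:7000001-8000000 with 17 and chr38:9000001-10000000 with 16. *E2F1* was called in all 6 dogs in 3 of them and in 5 dogs in the others. These sums lie within the range of the members, 3 to 99, around their median of 17.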

How the results depend on the processing

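The 6 within-dog results kept their direction and passed the threshold in 40 of 40 alternatives with all 6 dogs. The sign-flip test gives its smallest p, 0.03125, whenever all 6 ratios share a sign, so passing the threshold adds nothing to the shared direction. The alternatives use the same dogs and are not separate support. With a dog left out the within-dog results kept their direction in 36 of 36, and 5 dogs allow no p below 0.0625. Over those choices, the within-dog log2 ratio ran from -2.72 to -2.29 for *E2F1* peaks, from -2.04 to -1.72 outside *H3K27ac*, and, for *H3K27ac* in dogs held out, from -6.27 to -5.91 for cover, from -4.66 to -4.36 for peaks, from -1.19 to -1.10 for width and from -0.102 to -0.0764 for fold enrichment. The 4 genotype differences changed sign in 9 of 51 alternatives, and since 3 dogs against 3 allow no p below 0.1 their threshold could not be crossed in any. With each dog left out, these ran from -0.142 to 0.0158 Mb for cover, from -0.628 to 0.0108 for its log2 ratio, from -160 to -20.5 *E2F1* peaks and from -0.413 to 0.586 for the *E2F1* log2 ratio. With all deposited peaks the difference in *E2F1* peaks was 774, and the difference in *E2F1* log2 ratio was -0.0380 with the lowest 5% of bins and -0.0200 with bins from 0.5 Mb. The cause was not tested.

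Deviations of same-numbered dogs had correlations of -0.403 to -0.156 for *H3K27ac* and -0.110 to 0.230 for *E2F1*. With 3 dogs per genotype, these values cannot decide whether the numbers pair the dogs. With the replicate block, 0 bins were called by limma (15 at an unadjusted p below 0.05), and the exact test over 3 pairs gave p = 0.75 for the cover difference of -0.0680 Mb, p = 1 for its log2 ratio of -0.377, p = 0.5 for the *E2F1* difference of -80.7 peaks and p = 1 for its log2 ratio of 0.00952. limma called 0 bins under every alternative. Leaving out bins with assembly gaps was not run, since no genome of the build was used. Peak lists carry no depth, so bins without a peak cannot be told from bins read too thinly.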

Other observations

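A few *E2F1* peaks in the members carried extreme fold enrichments, and they were picked out after their values were seen. Above 100-fold lay 6 of the 3713 *E2F1* regions in members (0.162%) and 33 of 175224 in the remaining bins (0.0188%), or 2.76 and 1.68 per 100 Mb. At chr37:3619690-3619918, of 229 bp, fold enrichment was 12667 and 14748 in ancestral dogs 2 and 3 and 7243, 7478 and 23930 in derived dogs 1 to 3, with no peak in ancestral dog 1. At chr13:56563284-56563519, of 236 bp, the same 5 dogs had 1914, 2242, 1618, 3192 and 1831. At chr14:29572434-29572835 it was 5687 in ancestral dog 2 and 5817 and 8526 in derived dogs 1 and 2. At chr33:14497454-14497678 it was 93.5 in ancestral dog 2 and 135 and 160 in derived dogs 1 and 2. The other 2 regions were called in 1 dog each, chr3:5893455-5893830 with 18777 in derived dog 3 and chr34:39939478-39939668 with 1013 in derived dog 2. The region of CFA33 had an *H3K27ac* peak in 2 dogs and the other 5 regions in none, and ancestral dog 1 had no *E2F1* peak above 100-fold in the members. Without such peaks the log2 ratio of *E2F1* density in members to that in the remaining bins was -2.56.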
